A study of Mus musculus with 12 samples.

Results

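The transcripts of 7 GABA-A receptor subunits, Gabra2, Gabra3, Gabra6, Gabrb1, Gabrb2, Gabrd and Gabrg1, were followed across 12 libraries of mouse cerebellum, which the series title places in crus 1. The members were taken by gene symbol as a list of the subunit family, and all 7 were among the 57010 genes of the count table and among the 19166 genes that passed the filter on low counts. Bulk RNA sequencing was done on 3 groups of 4 libraries: FVB mice that received saline, Fmr1 knockouts that received saline (sham in the titles), and Fmr1 knockouts that received poly(I:C) by the intraperitoneal route. FVB is an inbred strain and the background named for the knockout, whose loss of the RNA-binding protein FMRP makes it a model of fragile X syndrome, and poly(I:C) is a double-stranded RNA analogue that sets off an antiviral interferon response. No FVB mice given poly(I:C) were analysed here. The age of the mice, the time from injection to sampling and whether each library is 1 animal are not stated in the labels, so the p-values cover the spread among these libraries, which may be technical.

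GABA-A receptors are pentameric chloride channels opened by the inhibitory transmitter GABA. Most combine α and β subunits with a γ or δ subunit, and the α subunit shapes GABA affinity and drug binding. Gabra6 and Gabrd are known for cerebellar granule cells, where receptors with the δ subunit lie outside synapses and carry tonic inhibition. Gabra2 and Gabrg1 are known for Bergmann glia, the radial astrocytes of the cerebellar cortex, and Gabra3 for Golgi cells and other sparse neurons. The family sits in gene clusters: by the GRCm38 annotation Gabrg1, Gabra2 and Gabrb1 lie on chromosome 5, Gabra6 and Gabrb2 on chromosome 11, Gabrd on chromosome 4, and Gabra3 on chromosome X, as does Fmr1.

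The 250 bases upstream of the annotated starts were searched on both strands for 5 patterns chosen after the values were known. RefSeq windows of GRCm38.p6 were matched for 6 of the 7 members, 10 windows in all, and were read against 32851 windows of all genes. The core of the interferon-stimulated response element, through which poly(I:C) is known to act on genes (GAAA, any 2 bases, GAAA), was in 0 of the 10 windows and in 2.98% of all. The interferon-gamma activated site, a STAT target (TTCNNNGAA, the same on both strands), was in 1 window of Gabra6 and 1 of Gabrg1, 2 of the 10, and in 7.02% of all. TATAAA was in 3 of the 10 (Gabra3 and Gabrb2) and 12.4% of all, TTGGC, the core of the NFI site, in 5 of the 10 and 41.5% of all, and the GC box GGGCGG in 2 of the 10 (Gabra2 and Gabrb2) and 32.7% of all. Windows of a gene can overlap. Shown are the 2 windows with the STAT pattern, in capitals, and a window of Gabra3, which with Gabrg1 is a member that passed a test. These 3 are on the minus strand and are written 5′ to 3′.
Gabra6, chr11:42321073-42321322: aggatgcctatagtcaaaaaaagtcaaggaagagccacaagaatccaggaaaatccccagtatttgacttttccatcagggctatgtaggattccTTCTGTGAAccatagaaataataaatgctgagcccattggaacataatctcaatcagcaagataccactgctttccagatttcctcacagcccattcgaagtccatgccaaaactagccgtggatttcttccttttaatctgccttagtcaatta
Gabrg1, chr5:70842618-70842867: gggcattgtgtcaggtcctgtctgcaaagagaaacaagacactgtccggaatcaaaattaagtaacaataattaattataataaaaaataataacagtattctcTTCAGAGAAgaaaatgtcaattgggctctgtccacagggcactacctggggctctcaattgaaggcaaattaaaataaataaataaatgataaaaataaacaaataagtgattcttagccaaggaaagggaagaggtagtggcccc
Gabra3, chrX:72656920-72657169: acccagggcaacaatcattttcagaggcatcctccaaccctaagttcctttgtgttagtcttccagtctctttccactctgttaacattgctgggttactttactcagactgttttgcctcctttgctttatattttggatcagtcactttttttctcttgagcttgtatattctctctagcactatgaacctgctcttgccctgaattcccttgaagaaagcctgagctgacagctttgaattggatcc
The Gabra6 match begins 155 bases and the Gabrg1 match 146 bases upstream of the start. These are matches of letters, not measured binding.

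The libraries held 35155420 to 48717119 counts for FVB, 38723699 to 50248411 for the saline and 39352860 to 56390207 for the treated knockout. Fmr1 had 85.5 to 108 CPM (counts scaled to library size) in FVB and 27.9 to 36.75 CPM in the 8 knockout libraries, with log2 fold changes against FVB of −1.58 (SE 0.0884) in the saline and −1.46 (SE 0.0879) in the treated knockout (edgeR, adjusted p = 8.74e-09 and 1.59e-09). The choroid plexus gene Ttr exceeded 1000 CPM in saline knockout 2 and treated knockout 2 and 3, against 1.63 to 65.3 CPM in the other 9 libraries. Values that change without these 3 libraries are given below. Their removal leaves treated knockout 1 and 4 only, so choroid plexus and the smaller group cannot be told apart there. Xist had 2 to 23 counts and Ddx3y 1957 to 4309 counts in a library. In bulk tissue, fewer cells of a type and less RNA per cell cannot be told apart.

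Per length, the 7 transcripts spanned a wide range. Dividing CPM by kilobases of exon in the GENCODE M21 gene models, the mean over 12 libraries was 383.6 CPM per kb for Gabra6, 70.9 for Gabrd, 27.4 for Gabrb2, 9.14 for Gabra2, 4.93 for Gabrb1, 3.86 for Gabra3 and 2.496 for Gabrg1. Thus the granule cell subunit Gabra6 was 5.41 times the next, Gabrd, and Gabra3 and Gabrg1 were the lowest. Gabra2, the other subunit known for Bergmann glia, lay above Gabrb1. The order held in all 12 libraries for each neighbouring pair. Only for Gabrb1 above Gabra3 (1.28 times) and Gabra3 above Gabrg1 (1.55 times) did the ranges over the libraries overlap. Among all tested α subunits, Gabra6 made up 72.1 ± 1.12% of the summed level per length for FVB, 74.2 ± 2.63% for the saline knockout and 75.5 ± 1.98% for the treated knockout (SD, n = 4).

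**Figure D1:**
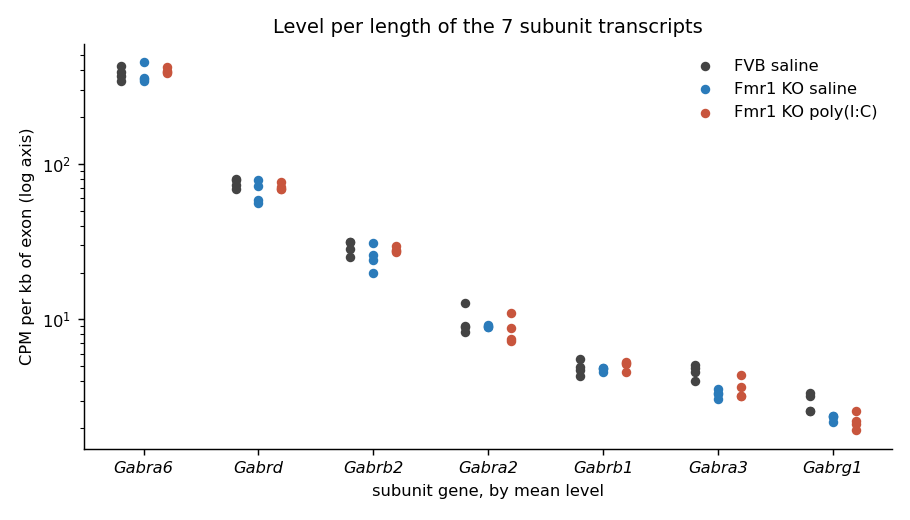
Level of each of the 7 subunit transcripts in CPM per kilobase of exon (log axis), 1 point per library, coloured by group. Gabra6 lies near 383.6 and Gabrg1 near 2.496, and the groups of a gene lie close together on this scale.

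Gabra3 was the member that fell in the saline knockout, where 0.72% of all tested genes fell by the same test (1.53% in either direction). Its level was 19.9, 15.7, 18.0 and 19.0 CPM across FVB 1 to 4, 13.2, 13.9, 13.0 and 12.1 CPM across saline knockout 1 to 4, and 17.3, 14.3, 12.7 and 12.7 CPM for the treated libraries 1 to 4. All 4 saline knockout libraries lay below all 4 FVB libraries, while treated knockout 1 lay within the FVB range and the other 3 treated libraries below it. The saline knockout was at 13.1 ± 0.776 CPM against 18.1 ± 1.84 CPM in FVB (SD, n = 4), 0.719 times the level (log2 −0.48, SE 0.111, 95% interval −0.71 to −0.24). The change passed in the quasi-likelihood model of edgeR (adjusted p = 0.0366, Benjamini-Hochberg). The treated knockout, at 14.3 ± 2.18 CPM (SD, n = 4), differed from FVB by −0.35 (SE 0.110) and did not pass (edgeR, adjusted p = 0.0662). Between treated and saline knockout the difference was 0.13 (SE 0.111, 95% interval −0.10 to 0.36; edgeR, adjusted p = 0.637).

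The Gabra3 call in the saline knockout rested on nearly every library of its comparison. Leaving out FVB 1, 3 or 4 or any 1 saline knockout library ended it (edgeR, adjusted p = 0.0640 to 0.114), with log2 fold changes of −0.51 to −0.43. It was also lost without the 3 libraries high in Ttr (−0.51, edgeR, adjusted p = 0.0685), with log2 Ttr as a covariate (0.0517) and by limma-voom (0.0558), while DESeq2 gave 0.00294. In the treated knockout it passed by DESeq2 (adjusted p = 0.0324), without FVB 2 (edgeR, 0.0469) and without treated knockout 1 (edgeR, −0.46, adjusted p = 0.0145).

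Gabra3 lies on the same stretch of chromosome X as Fmr1, the targeted gene, with 14 tested genes between them. In the saline knockout 0 of these 14 passed, nor did any of the 20 tested genes before Fmr1 or the 20 beyond Gabra3 (edgeR; share of all tested genes called in this comparison, 1.53%). The median log2 fold change was −0.0008 over the 14, 0.03 over the 20 before and 0.04 over the 20 beyond. In the treated knockout against FVB, where 7.05% of all tested genes were called, Hmgb3, a chromatin protein gene, fell among the 14 (−0.41, SE 0.116). Slitrk2 (−0.41, SE 0.0831), a synaptic adhesion gene, fell before Fmr1. Pnma3 (−0.82, SE 0.141) and Plxnb3 (−0.36, SE 0.0972), a semaphorin receptor gene, fell beyond Gabra3. In treated against saline knockout 1 of the 54 flanking genes passed, Haus7 (−0.55, SE 0.132). Loss of Fmr1 and other differences between the lines cannot be told apart in this design.

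**Figure D2:**
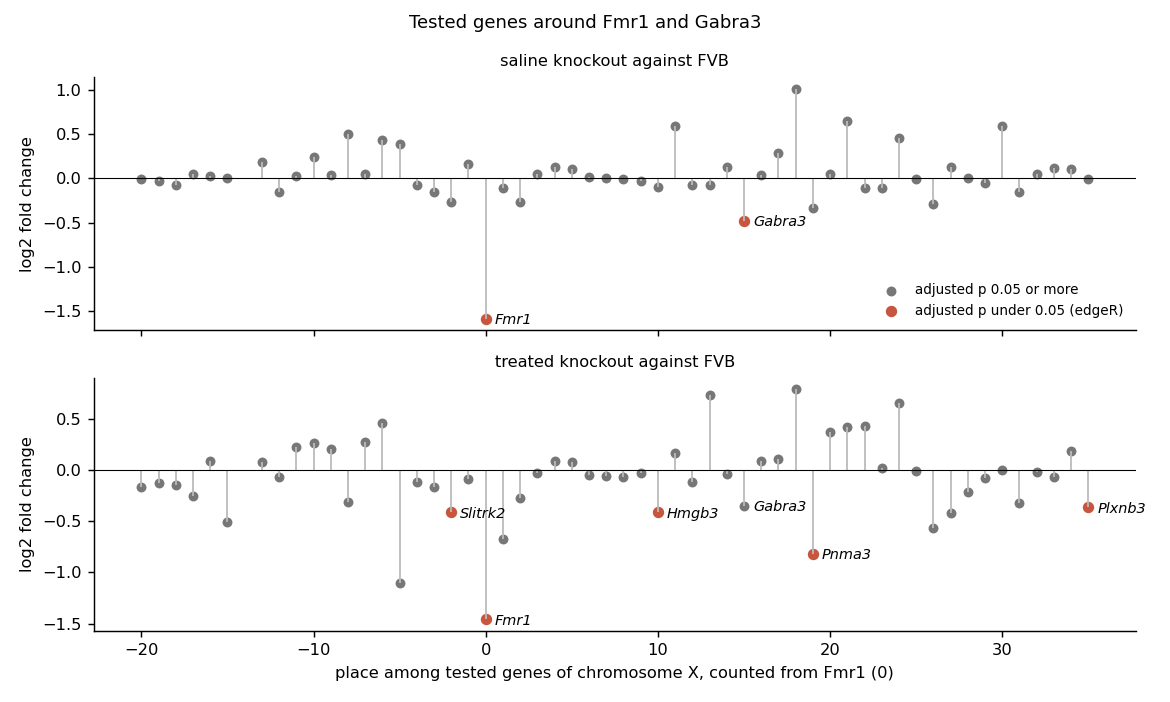
Log2 fold change against FVB of the tested genes around Fmr1 and Gabra3 (1 not shown), in their order on chromosome X counted from Fmr1, for the saline (top) and treated (bottom) knockout. Red points passed edgeR's test; in the saline knockout these are Fmr1 at −1.58 and Gabra3 at −0.48, with the 14 genes between them in grey.

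Of 12 markers of Golgi cells and molecular layer interneurons, 1 fell and 11 did not pass in the saline knockout (median log2 fold change −0.12). In the treated knockout against FVB 3 fell (median −0.21). Of all tested genes 0.72% and 3.24% fell in these 2 comparisons. At an unadjusted p under 0.05 there were 4 of the 12 markers (4 lower) in the first and 8 (7 lower) in the second. Of all 19166 tested genes 2299 and 4082 had such a p in these 2 comparisons, and 2973 in treated against saline knockout. The summed level of the 12 markers was 1453 to 1765 CPM over the FVB libraries, 1334 to 1561 over the saline and 1321 to 1490 over the treated knockouts. Pvalb, the most abundant of the 12, averaged 819, 763 and 749 CPM in these groups, so the sum weighs it most. Markers of the deep nuclei and brainstem, 5 of 12 of which were abundant enough to test, summed to 190.3 to 229 CPM, 183 to 216 and 198 to 232.5 CPM, and Hoxb6 of that list had 0 counts. In the treated knockout against FVB 2 of these 5 rose, named here after their values were seen: Spp1 from 12.9 to 22.7 CPM (0.82, SE 0.203; edgeR, adjusted p = 0.0288) and Sncg from 1.94 to 3.36 CPM (0.79, SE 0.222; edgeR, adjusted p = 0.0373). The other 3 had negative fold changes, the median over the 5 was −0.08, and 3.81% of all tested genes rose in that comparison. By edgeR 0 of the 5 passed in the saline knockout (2 at an unadjusted p under 0.05) and 0 in treated against saline knockout (1 at an unadjusted p under 0.05). The part of these cells in the Gabra3 result was not tested.

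Gabra2, the α subunit of Bergmann glia, did not pass in any comparison. It was at 68.0, 63.4, 69.3 and 97.99 CPM across FVB 1 to 4, at 68.3, 68.5, 69.3 and 69.9 CPM across the saline knockout and at 84.0, 55.3, 56.9 and 67.0 CPM in the treated knockout. FVB 4 and treated knockout 1 stood above the other libraries, and the saline knockout libraries were almost level. The log2 fold change was −0.11 (SE 0.146, 95% interval −0.43 to 0.20) in the saline knockout, −0.18 (SE 0.146) in the treated knockout against FVB and −0.07 (SE 0.146) between the knockouts (edgeR, adjusted p = 0.839, 0.525 and 0.884). Without FVB 4 the first of these turned to 0.04.

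Gabra6 did not pass either. Its level was 906, 851, 969 and 1063 CPM across FVB 1 to 4, 847, 867, 880.2 and 1116 CPM across the saline knockout libraries and 969, 984, 959 and 1048 CPM in the treated knockout. The groups overlapped throughout, and saline knockout 4 was the highest of all 12. Log2 fold changes were −0.03 (SE 0.0858, 95% interval −0.21 to 0.15), 0.06 (SE 0.0858) and 0.09 (SE 0.0858) for saline knockout against FVB, treated knockout against FVB and treated against saline knockout (edgeR, adjusted p = 0.940, 0.723 and 0.660). The first of these turned to 0.03 without FVB 4 and to 0.0023 without the 3 libraries high in Ttr.

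Of the β subunits, which carry part of the GABA site, neither passed. Gabrb1 was at 77.1, 59.7, 65.3 and 68.8 CPM across FVB 1 to 4, 67.3, 66.6, 67.3 and 63.7 CPM across the saline knockout libraries and 73.0, 63.9, 74.0 and 71.4 CPM in the treated knockout. Gabrb2 was at 199, 161, 179 and 201 CPM, 196, 164, 152 and 126 CPM, and 188, 175, 172 and 178 CPM in the same order. Saline knockout 4 had the lowest Gabrb2 of all libraries, although its Gabra6 was the highest. For Gabrb2 the saline knockout differed from FVB by −0.21 (SE 0.106, 95% interval −0.44 to 0.02) and the treated from the saline knockout by 0.16 (SE 0.106; edgeR, adjusted p = 0.463 and 0.527). For Gabrb1 the differences ranged from −0.03 to 0.09 over the 3 comparisons (edgeR, adjusted p = 0.923, 0.612 and 0.699 for saline knockout against FVB, treated against saline and treated against FVB).

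Gabrd, the δ subunit of receptors outside the synapse, was at 227, 231, 209 and 198 CPM across FVB 1 to 4, 162, 168, 206 and 226 CPM across the saline knockout libraries and 199, 203, 220.0 and 197 CPM in the treated knockout. Saline knockout 1 and 2 lay below every other library, and saline knockout 3 and 4 within the FVB range. The saline knockout differed from FVB by −0.18 (SE 0.0909, 95% interval −0.37 to 0.01), the treated knockout from FVB by −0.08 and the treated from the saline knockout by 0.10 (edgeR, adjusted p = 0.451, 0.671 and 0.647). Granule cell markers listed without Gabra6 and Gabrd had 0 of 15 members called in the saline knockout by edgeR (4 at an unadjusted p under 0.05, 2 of them lower). Of all 19166 tested genes 2299 had an unadjusted p under 0.05 there. The median log2 fold change of the 15 markers was 0.0083. In treated against saline knockout 0 passed (median −0.08, 11 of 15 negative). In the treated knockout against FVB 1 of these markers fell (median −0.02, 10 of 15 negative), against 3.24% of all tested genes. Summed, the granule cell markers were at 8523 to 9744 CPM over the FVB libraries, 8973 to 9767 over the saline and 8665 to 9129 over the treated knockouts.

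Gabrg1, the γ subunit of Bergmann glia, fell in the treated knockout against FVB, as did 3.24% of all tested genes. It was at 26.6, 20.2, 20.4 and 25.3 CPM across FVB 1 to 4, 18.6, 18.7, 17.3 and 18.9 CPM across the saline knockout libraries and 20.4, 16.7, 15.2 and 17.5 CPM in the treated knockout. Every saline knockout library lay below every FVB library, and treated knockout 1 alone reached the lowest FVB values. The treated knockout was at 17.4 ± 2.17 CPM against 23.1 ± 3.297 CPM in FVB (SD, n = 4), 0.755 times the level (log2 −0.41, SE 0.106, 95% interval −0.63 to −0.18; edgeR, adjusted p = 0.0258). The saline knockout, at 18.4 ± 0.703 CPM (SD, n = 4), differed from FVB by −0.33 (SE 0.106, 95% interval −0.55 to −0.11) and did not pass (edgeR, adjusted p = 0.158). The 2 knockout groups differed by −0.07 (SE 0.107, 95% interval −0.298 to 0.15; edgeR, adjusted p = 0.806).

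The Gabrg1 call ended without FVB 1 or 4 or treated knockout 2, 3 or 4 (edgeR, adjusted p = 0.0575 to 0.104). Dropping the 3 libraries high in Ttr, which leaves only treated knockout 1 and 4, ended it too (−0.28, edgeR, adjusted p = 0.395). So did log2 Ttr as a covariate (edgeR, 0.0512), and the call held by DESeq2 (0.00626) and limma-voom (0.0450). Of 14 markers of Bergmann glia and astrocytes, 1 fell in the treated knockout against FVB, where 3.24% of all tested genes fell. The other 13 did not pass, 6 of the 14 had an unadjusted p under 0.05 (4 lower), and the median was −0.08 over the 14 markers. Of all 19166 tested genes 4082 had an unadjusted p under 0.05 in that comparison. The 14 markers summed to 7739 to 8396 CPM over the FVB libraries, 7755 to 8699 over the saline and 7166 to 7936 over the treated knockouts. Aldoc, the most abundant of the 14, averaged 2320, 2277 and 2198 CPM in these groups, so the sum weighs it most. The part of these cells in the Gabrg1 result was not tested.

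**Figure D3:**
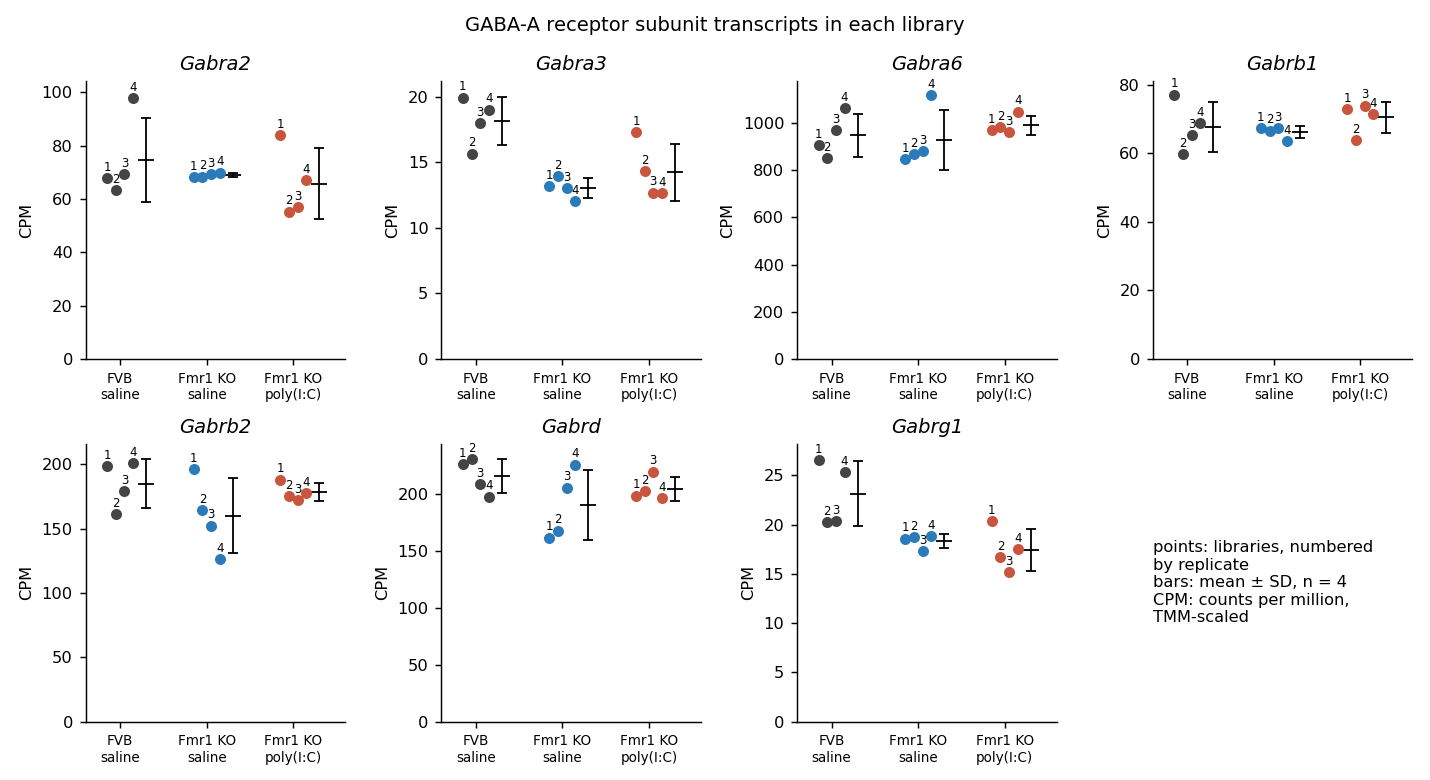
CPM of the 7 subunit transcripts in each library (points, numbered by replicate) with the mean ± SD of 4 libraries beside them. Gabra3 and Gabrg1 are lower in all 4 saline knockout libraries than in all 4 FVB libraries, and for the other 5 the groups overlap.

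The subunit mix was read from the same values. Per length, Gabra3 was 0.878 ± 0.0810% of all tested α subunits for FVB, 0.671 ± 0.0966% for the saline and 0.689 ± 0.101% for the treated knockout (SD, n = 4). Gabrg1 was 8.32 ± 0.511% of all tested γ subunits for FVB, 7.03 ± 0.345% for the saline and 6.82 ± 0.290% for the treated knockout (SD, n = 4). For Gabrg1 the FVB libraries ranged from 7.86 to 8.95% and the 8 knockout libraries from 6.51 to 7.36%, with no overlap. For Gabra3 treated knockout 1, at 0.824%, exceeded FVB 4, at 0.810%. The share of Gabra4, an α subunit outside the members, was 0.895 to 1.037% in the treated knockout against 1.141 to 1.304% in FVB. It was 1.156 to 1.345% in the saline knockout. These shares were chosen after the values were seen, use the same counts as the fold changes and were not tested.

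**Figure D4:**
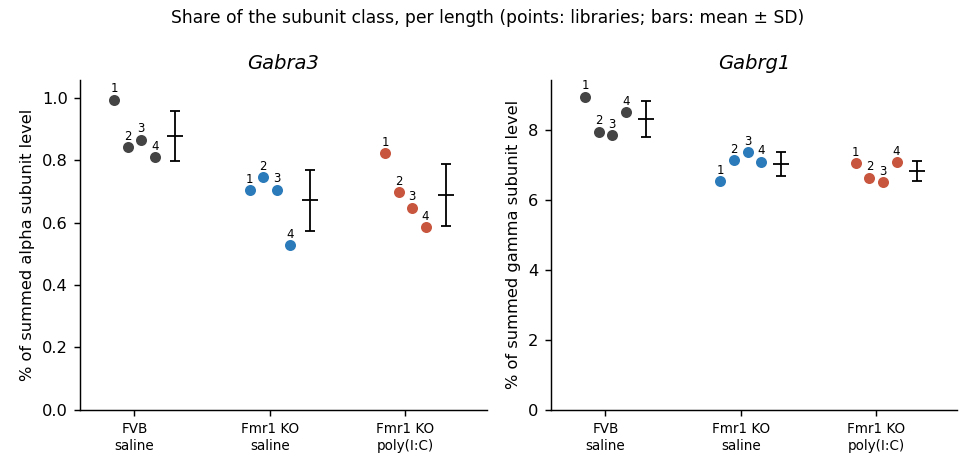
Share of Gabra3 in the summed level per length of the tested α subunits and of Gabrg1 in that of the γ subunits, in percent, by library, with mean ± SD of 4 libraries. The Gabrg1 share is 8.32% in FVB and 7.03 and 6.82% in the saline and treated knockout.

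Over the family list, 1 of the 7 passed in the saline knockout against FVB (Gabra3, lower), 0 in treated against saline knockout and 1 in the treated knockout against FVB (Gabrg1, lower). Among all 19166 tested genes edgeR called 1.53%, 2.87% and 7.05% in these comparisons, of which 0.814%, 1.81% and 3.81% were higher and 0.72%, 1.06% and 3.24% lower. A single call among 7 genes is too small a count to set apart from these shares. All 7 members had a negative fold change in the saline knockout, with a median of −0.18 against 0.0033 over all tested genes. Of all tested genes 50.9% were positive there. The 7 other tested subunits of the family were split there, 4 negative and 3 positive, with a median of −0.04. In treated against saline knockout 5 of the 7 members were positive, with a median of 0.09 against −0.0017 over all tested genes. In the treated knockout against FVB 5 of the 7 members were negative, with a median of −0.08 against 0.001. The comparisons share libraries. For treated against saline knockout, 0 members reached an unadjusted p under 0.05 and DESeq2 and limma-voom called 0. Among all 19166 tested genes 2973 reached such an unadjusted p there. The groups did not overlap for 2, 0 and 0 of the 7 members, against 7.02%, 9.75% and 14.2% of all tested genes.

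**Figure D5:**
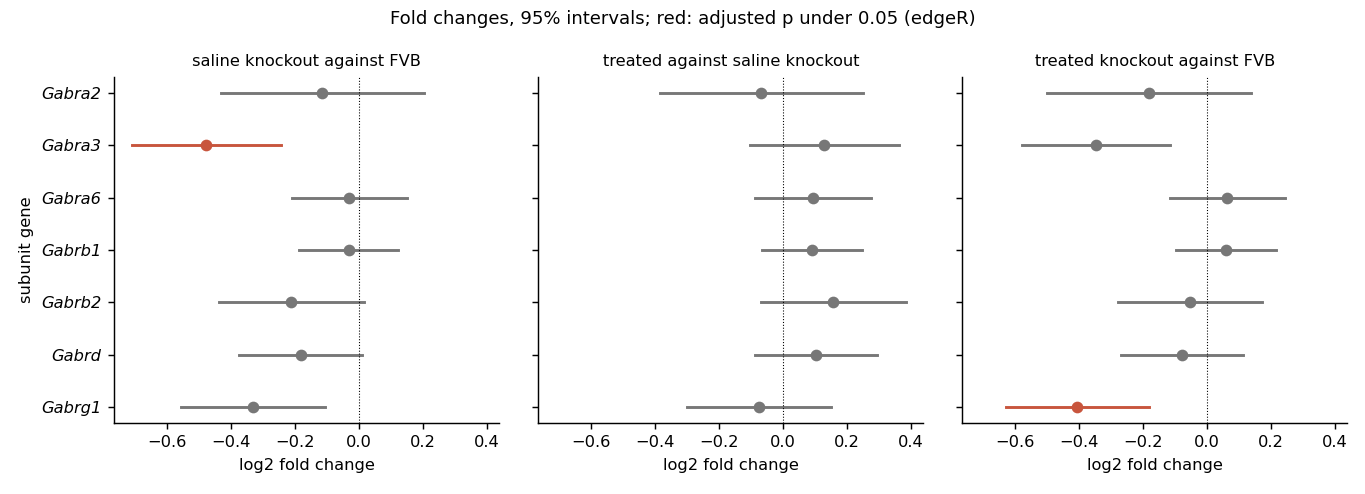
Log2 fold change of each subunit transcript (points) with its 95% interval (lines) in the 3 comparisons, red where edgeR's adjusted p was under 0.05. Gabra3 at −0.48 in the first panel and Gabrg1 at −0.41 in the third are red, and in the middle panel all 7 intervals include 0.

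Of 12 other GABA-A receptor subunits 7 were abundant enough to test. Gabra4, an α subunit whose gene lies in the chromosome 5 cluster with Gabra2 and Gabrg1, fell in the treated knockout against FVB, as did 3.24% of all tested genes. It was at 40.5, 34.8, 36.7 and 43.1 CPM across FVB 1 to 4, 33.6, 36.8, 38.5 and 41.97 CPM across the saline knockout libraries and 33.8, 28.5, 29.4 and 32.9 CPM in the treated knockout. All treated libraries lay below all FVB libraries (log2 −0.32, SE 0.0874; edgeR, adjusted p = 0.0344). This call ended without FVB 1, 3 or 4 or treated knockout 2, 3 or 4 (edgeR, adjusted p = 0.0506 to 0.119), without the 3 libraries high in Ttr (0.474), with log2 Ttr as a covariate (0.0717) and by limma-voom (0.0521). By edgeR's quasi-likelihood test the other 6 did not pass there, and 0 of the 7 passed in each of the other comparisons (1 at an unadjusted p under 0.05 in each).

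Of 28 genes of anchoring, assembly and trafficking, which bring GABA-A receptors to the membrane and hold them there, 1 rose in each comparison and 27 did not pass. Of all tested genes 0.814% rose in the saline knockout against FVB, 1.81% in treated against saline knockout and 3.81% in the treated knockout against FVB. At an unadjusted p under 0.05 there were, in the same order, 3 of the 28 (2 lower), 5 (3 lower) and 8 (6 lower). Of all 19166 tested genes 2299, 2973 and 4082 had such a p. In the treated knockout against FVB 19 of the 28 fold changes were negative. Radixin, the product of Rdx, ties some GABA-A receptors to actin. Rdx rose in the saline knockout from 109.8 to 129 CPM (log2 0.23, SE 0.0549, edgeR, adjusted p = 0.0434). That call ended when any 1 library other than FVB 4 or treated knockout 2 was left out (edgeR, adjusted p = 0.0512 to 0.124) and by limma-voom (0.0515). Plcl1, a phospholipase-like protein that takes part in receptor trafficking, rose from 22.0 to 27.7 CPM in treated against saline knockout (0.33, SE 0.0892; edgeR, adjusted p = 0.04996). Leaving out any 1 library other than FVB 2 ended that call (edgeR, adjusted p = 0.0523 to 0.162). Against FVB, at 19.6 CPM, Plcl1 rose in the treated knockout by 0.496 (SE 0.0896; edgeR, adjusted p = 0.00169), a call that held without each library in turn.

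On the side of the transmitter, Gad1, which encodes a GABA-synthesizing enzyme, was at 828, 781, 696 and 716 CPM across FVB 1 to 4, 754, 632.5, 695 and 659 CPM across the saline knockout libraries and 654, 560.2, 574 and 596 CPM in the treated knockout. All treated libraries lay below all FVB libraries, and it fell by 0.34 on the log2 scale (SE 0.0738; edgeR, adjusted p = 0.00755), a call lost without the 3 libraries high in Ttr (−0.27, edgeR, adjusted p = 0.160). Of the 11 genes of GABA synthesis, transport and breakdown it was the only 1 called in that comparison, where 3.24% of all tested genes fell. In the other comparisons edgeR called 0 of 11 (3 at an unadjusted p under 0.05 in the saline knockout and 2 in treated against saline). The smallest p there belonged to Best1, a channel gene at 0.207 against 0.509 CPM in the saline knockout and FVB (−1.32, SE 0.495; edgeR, adjusted p = 0.2502), and to Slc6a11, a glial GABA transporter at 71.1 against 87.9 CPM in treated and saline knockout (−0.31, SE 0.0895; edgeR, adjusted p = 0.0771). Of 10 chloride transport genes, which set the direction of the receptor's current, edgeR called 0 in each comparison (0, 2 and 2 at an unadjusted p under 0.05). Clcn2, a chloride channel, had the smallest p in the saline knockout (0.12, SE 0.0716; edgeR, adjusted p = 0.579) and Car2, a carbonic anhydrase, in treated against saline knockout (−0.25, SE 0.0802; edgeR, adjusted p = 0.115). The one of smallest p in the treated knockout against FVB, Slc12a5, the neuronal chloride exporter, was at 496 against 559.8 CPM (−0.17, SE 0.0638; edgeR, adjusted p = 0.113).

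Of 5 genes of the metabotropic GABA-B receptors, 2 fell in the treated knockout against FVB, where 3.24% of all tested genes fell. Kctd12, an auxiliary subunit, went from 315 to 245 CPM (−0.36, SE 0.0619; edgeR, adjusted p = 0.00101) and kept its call without each library in turn. Gabbr1, the GABA-binding subunit, went from 962 to 821 CPM (−0.23, SE 0.0630; edgeR, adjusted p = 0.0330). That call ended without FVB 2 or 4 or treated knockout 2, 3 or 4 (edgeR, adjusted p = 0.0614 to 0.113), without the 3 libraries high in Ttr (0.329), with log2 Ttr as a covariate (0.0662), without the low-count filter (0.0527) and with the replicate block (0.0647). In the saline knockout edgeR called 0 of the 5 (3 at an unadjusted p under 0.05), Kctd12 being at 266 CPM (−0.24, SE 0.0619; adjusted p = 0.0539). There 2299 of all 19166 tested genes had an unadjusted p under 0.05. In treated against saline knockout edgeR called 0 of the 5 (0 at an unadjusted p under 0.05), with Kctd12 at −0.12 (SE 0.0618; adjusted p = 0.386).

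Among 12468 named genes with mean log2 CPM no lower than 1, those whose levels tracked Gabra3 most closely over the 12 libraries were Ankrd29, Nin and Siae. Likeness was the root mean square difference of log2 CPM after centring each gene on its own mean, and was 0.08, 0.11 and 0.11 against a standard deviation of 0.25 for Gabra3. For Gabrg1 they were Klhl23, B3gnt5 and Mef2a, at 0.09 each against a standard deviation of 0.23.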

How the data were processed

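RNA from 12 cerebellum libraries was sequenced, and raw read counts per Ensembl gene were deposited. The submitters' processing notes name Trim Galore, HISAT2, featureCounts and GRCm39, without versions. No source states the strand setting or multi-match rule, so overlapping or antisense genes may share reads. Symbols, exon lengths and gene order came from GENCODE M21 (GRCm38), which named 52029 genes. Groups came from the titles.

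Genes were filtered with filterByExpr (minimum count 10, total 15), scaled by TMM and fitted with edgeR 4.0.16 (R 4.3.3) as a robust quasi-likelihood model on 3 group means. p-values were Benjamini-Hochberg adjusted over all 19166 tested genes, with calls at 0.05. "Rose" and "fell" mean called. Counts at an unadjusted p under 0.05 are to be read against all tested genes. Of these 2299 had such a p in the saline knockout against FVB. The numbers were 2973 in treated against saline knockout and 4082 in the treated knockout against FVB. SE was taken as |log2 fold change| divided by the root of the F statistic. Simulated data for each comparison had 100 genes changed 2-fold and 100 changed 1.5-fold. Of the latter 71%, 64% and 74% were recovered for saline knockout against FVB, treated against saline and treated against FVB. Of the former 85%, 86% and 86% were recovered. These runs tested 18889, 18869 and 18862 genes. Of all calls 7.14%, 1.96% and 6.98% were false, above the nominal 5% in both comparisons with FVB. Changes as small as those of Gabra3 and Gabrg1 were not simulated.

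Alternatives were DESeq2 1.42.0, limma-voom (limma 3.58.1), other scalings and filters, a 2-group fit, the replicate block, log2 Ttr as covariate, a non-robust fit, an adjusted p under 0.1, and leaving out libraries. Members, lists and alternatives were chosen with earlier results of these data known. Named genes are the members, other subunits that passed, up to 4 called genes per pathway list or otherwise the 1 of smallest p, called X-linked neighbours, and the 3 genes most like each called member. Promoter patterns and the Gabra3, Gabra4 and Gabrg1 shares were chosen after the values were seen. The result for 1 X-linked neighbour is not reported here.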

Additional observations from a re-analysis of the deposited data

Results flagged for a closer look

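In 3 cases 1 library stood far from the other 3 of its group, judged by the gap to its nearest neighbour over the range of the group. With 21 such groups of 4 examined, chance flags about 1 in 20. Gabra2 was at 97.99 CPM in FVB 4, against 63.4 to 69.3 CPM in FVB 1 to 3. Gabra6 was at 1116 CPM in saline knockout 4, against 847 to 880.2 CPM in the other saline knockout libraries. Gabrg1 was at 17.3 CPM in saline knockout 3, against 18.6 to 18.9 CPM in the others of that group.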

How the results depend on the processing

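The number of members called in the saline knockout against FVB was 1, and 0 by limma-voom, with log2 Ttr as a covariate and without the 3 libraries high in Ttr; leaving out 1 library gave 0 to 1. In the treated knockout against FVB it was 1, 2 by DESeq2 and at an adjusted p under 0.1, and 0 with log2 Ttr as a covariate and without the 3 libraries; leaving out 1 library gave 0 to 2. In treated against saline knockout it was 0 under each alternative run. Log2 fold changes that turned sign were, without the 3 libraries, Gabra6 (0.0023, saline knockout against FVB), Gabra2 (0.13), Gabrd (−0.0001) and Gabrg1 (0.0539) in treated against saline knockout, and Gabra2 (0.0201) in the treated knockout against FVB. Leaving out 1 library, ranges that crossed 0 were −0.1843 to 0.0446 for Gabra2, −0.1348 to 0.0292 for Gabra6 and −0.0877 to 0.0355 for Gabrb1 in the saline knockout against FVB, and −0.2065 to 0.0102 for Gabra2 in treated against saline knockout. None of these had passed a test. The cause was not tested.

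With all tested genes, 294 were called in the saline knockout against FVB, 636 by DESeq2, 506 without the filter, 494 at an adjusted p under 0.1 and 156 to 194 without FVB 1, 2, 3 or 4 or saline knockout 2. In treated against saline knockout 550 were called, 986 by DESeq2, 917 at 0.1, 215 without the 3 libraries and 347 without treated knockout 3. In the treated knockout against FVB 1352 were called, 2123 at 0.1, 556 without the 3 libraries, 900 without FVB 2 and 791 without treated knockout 3. Same-number correlations of deviations ran from −0.099 to 0.145, and the largest other-number correlations from 0.015 to 0.164. These cannot show whether the replicate numbers pair the libraries. With the replicate block 1, 0 and 1 members were called. The block ended the calls of Rdx (adjusted p = 0.0720), Plcl1 in treated against saline knockout (0.0654) and Gabbr1 (0.0647).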
